A study of Homo sapiens with 4 samples.

Results

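Strong Fra-1 binding sites without DDX5 are the Fra-1 peaks with the deepest ChIP signal that no listed DDX5 peak overlaps. They come from chromatin immunoprecipitation followed by sequencing (ChIP-seq) of BT549 cells, an oestrogen receptor alpha-negative human breast cancer line, grown without treatment. A single library each was made with an antibody to Fra-1, with an antibody to DDX5, with control rabbit IgG, and from input DNA (sonicated chromatin before immunoprecipitation), all in this 1 line. Peaks of each antibody were listed by the authors against input and, separately, against IgG. A site belonged here if its Fra-1 peak over input lay on chromosomes 1 to 22 or X, overlapped a Fra-1 peak over IgG by at least 1 bp, overlapped no DDX5 peak over input and had a pileup of 100 or more. Pileup, as the authors list it, is how many ChIP fragments cover the summit. This gave 1836 sites of the 30571 Fra-1 peaks over input (6.01%), or 6.04% of the 30405 on those chromosomes. The sites were thus chosen by their Fra-1 pileup, by both Fra-1 callings and by the lack of a DDX5 peak, so values that rest on these are descriptions. A single library per antibody allows no test of a difference. Intervals beside shares are 95% exact binomial (Clopper-Pearson) intervals for counting error alone.

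Fra-1, the product of FOSL1, is a Fos-family subunit of the transcription factor AP-1. It binds DNA as a dimer with a Jun protein, often at enhancers far from gene starts, and its protein is stabilised by ERK signalling. It is abundant in many oestrogen receptor-negative, mesenchymal breast cancer lines, where it is tied to invasion. DDX5, an RNA helicase of the DEAD-box family, works with transcription factors as a coactivator and is recruited to chromatin through them and through RNA. The study asked which binding events belong to Fra-1, which to DDX5 and which to both. Positions are in hg19, and sites are named by position, since genes and motifs at them were not analysed here.

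The parts of the rule differed in how much of the Fra-1 list met them. Of the 30405 peaks, 15399 (50.6%) were called again over IgG, 6599 (21.7%) overlapped a DDX5 peak and 2540 (8.35%) had a pileup of 100 or more. Of those 2540 strong peaks, 2493 were called over both controls, and 1836 of these (73.6%, interval 71.9% to 75.4%) had no DDX5 peak. The other 657, called strong sites with DDX5 below, are their nearest counterpart. The remaining 47 strong peaks were not called over IgG, and 39 of the 47 overlapped a DDX5 peak. The 12116 peaks that met the rest of the rule with a pileup under 100 are called moderate sites without DDX5.

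**Figure D1:**
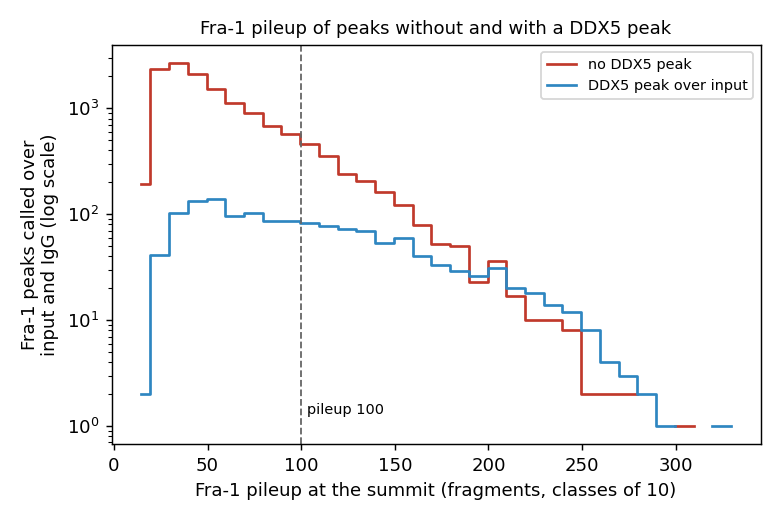
Number of Fra-1 peaks called over both input and IgG (log scale) in classes of 10 fragments of Fra-1 pileup, without (red) and with (blue) a DDX5 peak over input; empty classes are not drawn, and the dashed line is the pileup of 100 that the rule uses. Peaks without DDX5 outnumber the others at low pileup, and the curves meet near a pileup of 200.

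The sites were strong by fold as well as by depth. Their pileup ran from 100 to 300 with a median of 123 (interquartile range 109 to 147), and their fold over input from 4.96 to 57.2 with a median of 19.2 (15.4 to 24.2). Of the 1836, 1831 (99.7%) reached 8-fold over input, against 29.6% of all Fra-1 peaks over input on these chromosomes. Over IgG the median fold was 12.9 (10.2 to 16.7), and 1686 sites (91.8%) reached 8-fold, against 40.4% of all peaks called over both controls. The fold and the pileup are computed from the same fragments, so these shares follow in part from the rule. At moderate sites the medians were 7.78-fold over input and 6.46-fold over IgG. Of strong sites with DDX5, 99.7% also reached 8-fold over input, and 78.2% did over IgG.

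The list over IgG is no second measurement of Fra-1. The summits of the 2 lists lay within 10 bp of each other at 1795 sites (97.8%), and the pileup over IgG was 0.884 times that over input at the median and in both quartiles. The same library, scaled to the depth of the IgG library, was thus set against another control. Where the summits coincide, the folds over input and over IgG differ through the control and through that scaling of the depth.

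The threshold cut through a continuous range. The 46 sites with a pileup of exactly 100 were 16.2-fold over input and 11.2-fold over IgG at the median. The 47 peaks with a pileup of 99 that met the rest of the rule had medians of 17.1 and 11.1. The plot of peak numbers by pileup shows no break there.

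The 10 sites with the highest pileup show what the strongest Fra-1 signal without a DDX5 peak looked like. The deepest lay on chromosome 8 at 132868794 to 132869807, with a Fra-1 pileup of 300 against an input level of 9.68, which is 28.2-fold. A control level is the depth of control fragments that the caller set against the peak, here at the depth of the Fra-1 library. The next lay on chromosome 20 at 56273286 to 56273976, with a pileup of 273 (31.3-fold over input, 20.2-fold over IgG). The site on chromosome 9 at 18490493 to 18491351 had a pileup of 272, 13.4-fold over input and 7.32-fold over IgG. Its input level of 19.4 was the highest among sites of pileup 150 or more, and its IgG level of 32 fragments, at the depth of the IgG library, was the highest of all 1836 sites. Rank 4, on chromosome 20 at 25218318 to 25218940, had a pileup of 263 and a DDX5 peak 3.896 kb away.

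The other 6 had pileups of 247 to 262. They lay on chromosome 10 at 79110350 to 79110825, chromosome 9 at 21591614 to 21592159, chromosome 8 at 95254154 to 95255001 and 81962843 to 81963226, chromosome 13 at 49323747 to 49324542, and chromosome 1 at 88421524 to 88422162. Among the 10, the site on chromosome 13 had the lowest input level (4.84) and the highest folds, 42.5 over input and 27.4 over IgG. The IgG level exceeded the input level at all 10, by 1.61 to 2.48 times at equal depth. Apart from rank 4, the nearest DDX5 peak lay 19.3 to 620.4 kb away.

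The 10 sites with the highest fold over IgG were a different set. Their IgG levels were 2.67 to 5 fragments, against a median of 8 over all 1836 sites. The first, on chromosome 17 at 69408973 to 69409340, had a pileup of 176 and was 42.7-fold over IgG and 36.3-fold over input. Its IgG level of 2.67 fragments, at the depth of the IgG library, was the floor below which no control level in that list falls. The second, on chromosome 10 at 64192920 to 64193467, was 39.1-fold over IgG but 18.7-fold over input, where its input level was 8.71. Rank 3 was a site on chromosome 6 at 122115769 to 122116161 (pileup 209, 37.2-fold over IgG, 24.0-fold over input), and rank 4 one on chromosome 12 at 87106122 to 87106539 (pileup 149), which stood at the floor of both controls.

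The remaining 6 had pileups of 135 to 228 and were 31.6-fold to 34.1-fold over IgG. They lay on chromosome 3 at 89006754 to 89007281 and 114964251 to 114964705, chromosome 8 at 126231510 to 126231883, chromosome 1 at 214740094 to 214740428, chromosome 15 at 87912487 to 87912839, and chromosome 18 at 73120498 to 73121281. The sites on chromosomes 1 and 15 stood at the IgG floor, as ranks 1 and 4 did, so the folds and ranks of these 4 depend on that floor. The site on chromosome 15 had a DDX5 peak 0.743 kb away although none overlapped it. No site was among both the 10 deepest and these 10.

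**Figure D2:**
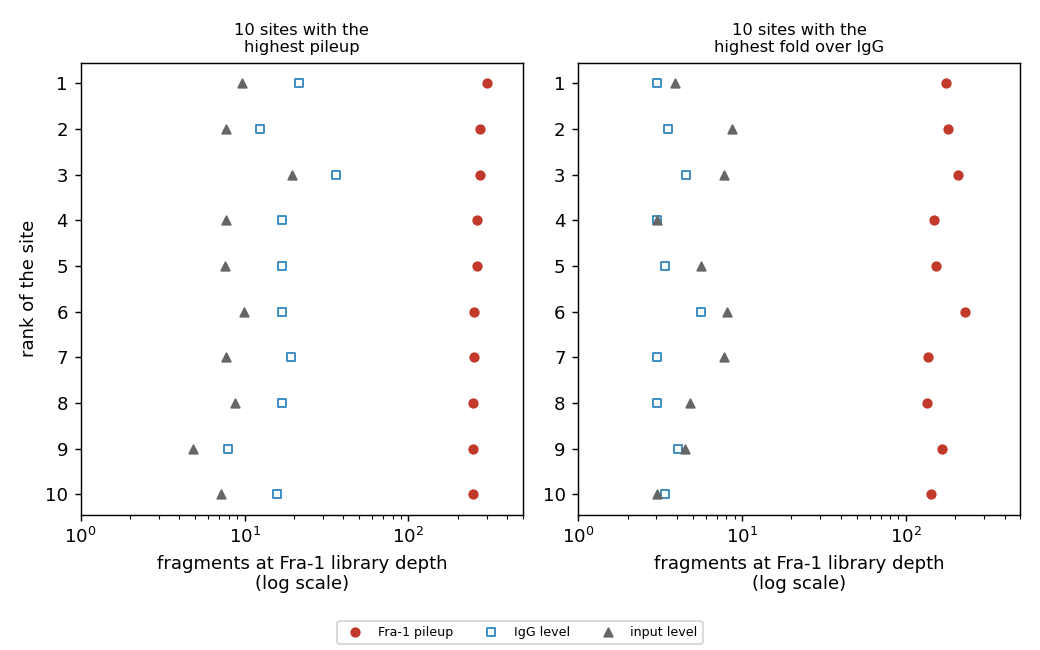
Fra-1 pileup (red circles), IgG level (open blue squares) and input level (grey triangles), all in fragments at the depth of the Fra-1 library on a log axis, at the 10 strong sites without DDX5 with the highest pileup (left) and with the highest fold over IgG (right). In the left panel each IgG level lies above its input level, by 1.61 to 2.48 times, while the right panel holds sites picked for little IgG signal.

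The input level set how a given depth translated into fold. Of 413 sites with a pileup of 150 or more, 10 stood at the input floor of 3.02 fragments. The deepest of these was on chromosome 2 at 173117887 to 173118354, with a pileup of 229 and the highest fold over input of all 1836 sites, 57.2, but 20.4-fold over IgG. Next came chromosome 4 at 1037384 to 1037840 (pileup 203, 50.7-fold over input), X at 13416445 to 13416996 (189, 47.2-fold), chromosome 2 at 145417211 to 145417730 (184, 46.0-fold) and chromosome 17 at 69067912 to 69068375 (174, 43.5-fold). Their IgG levels were 5 to 10 fragments, well above the IgG floor. A fold against a floor depends on that floor, so the ranking among these 5 is that of their pileups.

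At the other end, 27 sites (1.47%) had an input level of 12 or more. Of these, 8 were on chromosome 9, 8 on chromosome 8, 4 on chromosome 1 and 3 on chromosome 20. The 4 on chromosome 1 lay within 105.4 kb, between 145009431 and 145114814, at input levels of 17.6 to 23.2. They had pileups of 100 to 168 and folds over input of 4.96 to 9.08, the lowest of which, at 145028680 to 145028985, was also the lowest of all 1836 sites over both controls (3.89-fold over IgG). The stretch held 9 Fra-1 and 2 DDX5 peaks over input in all. Besides the sites already named on chromosomes 9 and 1, the 5 highest input levels at pileup 150 or more included chromosome 20 at 19796159 to 19796580 (15.5) and chromosome 3 at 197798774 to 197799180 (14.5). A site on chromosome 20 at 61334811 to 61335239 (pileup 210) had the same input level as the last to the digits given. Copy number and repeated sequence were not tested at these stretches.

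The IgG library carried more signal than input at most strong sites. At the depth of the Fra-1 library, the median IgG level was 9.05 (6.79 to 11.3) and the median input level 5.81 (4.54 to 7.16). The IgG level was the higher of the pair at 1529 of the 1836 sites (83.3%, 81.5% to 85.0%), against 70.2% of all peaks called over both controls. The median ratio of IgG to input was 1.55 (1.17 to 2.10), and the highest was 5.23. The floor at this depth is 3.02 fragments for both controls. Equal floors concern the scaling of the lists and do not show that the 2 control libraries are comparable. Among moderate sites the median ratio was 1.17 and the IgG level was the higher at 65.1%. All these sets hold only peaks called over IgG, as 2493 of 2540 strong peaks were, but only 15399 of all 30405. A shallow peak with a high IgG level is less likely to be called over IgG. The contrasts with moderate sites and with all peaks can thus follow in part from the selection, and that part was not tested.

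The IgG level mostly had the form of a depth read at a single position. It was a whole number of fragments, to within 0.01, at 1599 sites (87.1%, 85.5% to 88.6%), against 70.2% of all peaks called over both controls, 66.1% of moderate sites and 89.2% (86.6% to 91.5%) of strong sites with DDX5. The intervals of the strong sets overlapped. A depth read at 1 position in the unscaled IgG library is a whole number, whereas a level averaged over a wider window takes fractions and is whole only in part. The form of the input level was not counted, so this is not shown to be particular to IgG. The IgG level stood at the floor at 27 strong sites (1.47%) and at 10.9% of moderate sites. The calling over IgG leaves out shallow peaks with a high IgG level more readily than deep ones. The contrasts with moderate sites and with all peaks in this form and at the floor can thus follow in part from the selection, which was not tested. Sites with high IgG levels were found at ordinary input too. The site on chromosome 5 at 60597213 to 60597989 had an IgG level of 24 fragments, a pileup of 125 and 18.5-fold over input but only 4.46-fold over IgG.

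Pooled over all pileups, strong sites without and with DDX5 had the same median input level but not the same IgG level. The median IgG level, in fragments of the unscaled IgG library, was 8 (6 to 10) at strong sites without DDX5 and 12 (8 to 15) at strong sites with DDX5, while the median input level was 5.81 at both. At like pileup the input level was lower with DDX5, with medians of 5.61 without and 4.84 with it at 100 to under 120. At 120 to under 150 they were 5.81 and 4.84, and at 200 or more they were close, 7.11 and 7.07. The median ratio of IgG to input at equal depth was 1.55 without DDX5 and 2.34 with it. The IgG level was the higher of the pair at 83.3% of sites without DDX5 and at 97.4% (95.9% to 98.5%) of those with it. Fold over IgG had a median of 12.9 without DDX5 and 10.7 with it, although the sites without DDX5 had the lower median pileup, 123 against 145. Fold over input went the other way, with medians of 19.2 without DDX5 and 22.8 with it. Those medians were 16.9 and 18.6 at a pileup of 100 to under 120, and 27.9 and 27.3 at 200 or more.

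**Figure D3:**
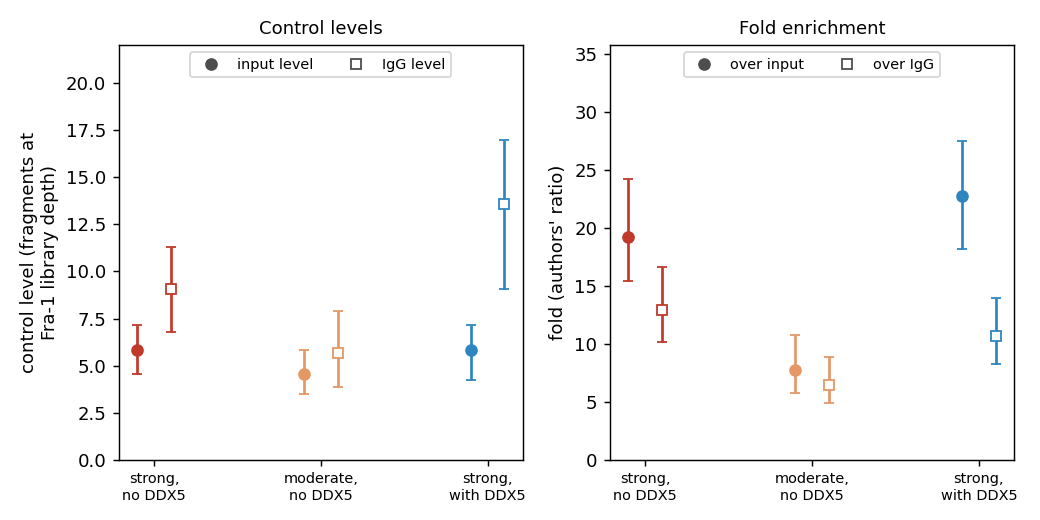
Medians with interquartile ranges (bars) of the input and IgG levels (left, fragments scaled to the Fra-1 library), and of the authors' fold over input and over IgG (right), at 1836 strong sites without DDX5, 12116 moderate sites without DDX5 and 657 strong sites with DDX5. The input level of both strong sets has a median of 5.81, and the IgG level medians are 9.05 at strong sites without DDX5 and 13.6 at those with it.

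The share of strong peaks without DDX5 was lower at higher pileup. Among strong peaks called over both controls it was 83.6% (81.1% to 85.9%) at a pileup of 100 to under 120, 75.7% at 120 to under 150, 63.4% at 150 to under 200 and 43.6% (36.6% to 50.7%) at 200 or more. It was also lower at higher IgG level, with 92.2% (89.3% to 94.5%) under 6 fragments, 82.4% at 6 to under 9, 74.8% at 9 to under 12 and 49.7% (45.8% to 53.6%) at 12 or more. Over classes of input level it stayed within a narrow range, with 70.3%, 75%, 73.8% and 73.7% at input levels under 4, 4 to under 6, 6 to under 8, and 8 or more.

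The order by IgG level held inside each range of pileup. At 100 to under 120 the share without DDX5 was 92.7%, 86.9%, 81.0% and 61.1% (52.2% to 69.5%) from the lowest to the highest IgG class. At 150 to under 200 it was 90.6% (29 of 32 peaks), 72.3%, 69.3% and 49.0%. At 200 or more the highest IgG class had 31.1% (41 of 132 peaks, 23.3% to 39.7%), and the lowest held only 5 peaks. Within the highest IgG class the share was still lower at higher pileup, and within the lowest class the intervals overlapped throughout. DDX5 peaks here were called over input, not over IgG, so a site's IgG signal was not subtracted from them, and its part in the overlap was not tested.

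**Figure D4:**
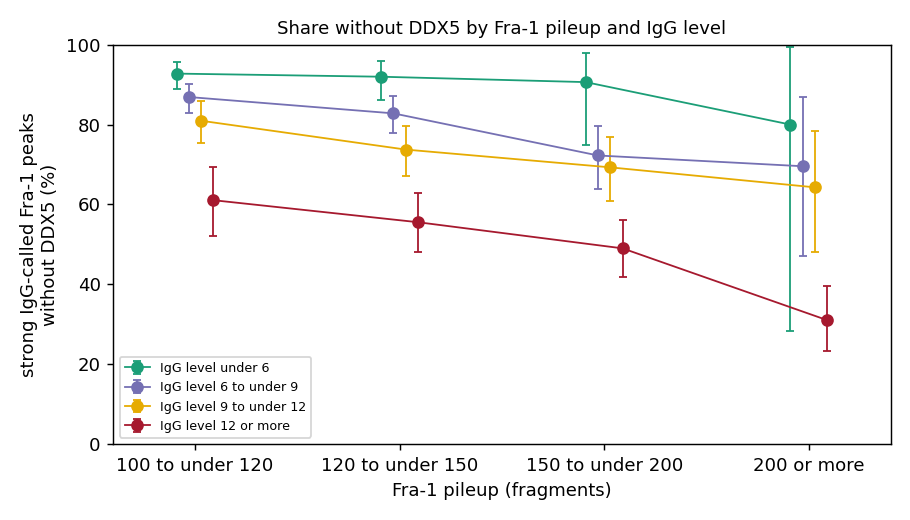
Share of strong Fra-1 peaks called over both controls that have no DDX5 peak (%), by Fra-1 pileup in fragments and by IgG level (fragments, unscaled IgG library); bars are 95% exact binomial intervals. The share is highest under an IgG level of 6 in each range of pileup and lowest at 12 or more, where it reaches 31.1% at pileups of 200 or more.

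Peak width moved with the same split. Strong sites without DDX5 had a median width of 506 bp (408 to 679), and strong sites with DDX5 743 bp (565 to 956). The gap was present within each range of pileup, with medians of 476 bp without DDX5 and 683 bp with it at 100 to under 120, and 613.5 and 814.5 bp at 200 or more. Of peaks at 100 to under 120 that were narrower than 500 bp, 94.4% had no DDX5 peak, against 73.6% of wider ones. At 200 or more the shares were 73.0% and 37.0%. A wide peak offers more bases for an overlap of 1 bp, and the part of this in the shares was not tested. The widest site without DDX5, on chromosome 5 at 134581428 to 134583213, spanned 1786 bp, had a pileup of 189 and held 2 IgG-called peaks. In all, 1763 sites matched 1 IgG-called peak, 72 matched 2 and 1 matched 3. Summits sat near the middle of the peaks, at a median of 49.7% of the width.

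The lack of a DDX5 peak does not show that DDX5 was absent, and the DDX5 signal at these sites is not given by the lists. The depth needed for a peak to be listed depends on the input level at a site. At the median input level of these sites, 5.15 fragments at the depth of the DDX5 library, a DDX5 pileup of 15 reaches the lowest −log10 p of the DDX5 list over input (3.84) by a Poisson tail. The 3830 listed DDX5 peaks with an input level in the interquartile range of these sites had pileups from 14, with a median of 22. At strong Fra-1 sites with DDX5 the median DDX5 pileup was 23 (19 to 28) and the median DDX5 fold over input 4.06. The short list of 61 DDX5 peaks over IgG says little about these sites. None overlapped a strong site without DDX5 (0 of 1836), 5 of the 657 strong sites with DDX5 (0.761%) overlapped one, and 43 of all 30405 Fra-1 peaks (0.141%) did. The count of 0 was taken to allow up to 3 sites (0.163%), a rule of thumb and not the exact interval used elsewhere. Both strong sets were split by peaks over input of the same DDX5 library, so these counts are not independent of the rule.

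DDX5 peaks occurred beside some of the sites. Within 10 kb, 267 sites (14.5%, 12.96% to 16.2%) had a DDX5 peak over input, against 12% of all peaks without DDX5 overlap called over both controls and 11.6% (11.02% to 12.17%) of moderate sites. The difference from moderate sites is small, and strong sites lie more often on some chromosomes than moderate ones. Within 1 kb the shares were 3.05% (56 sites) and 3.06% of moderate sites. The median distance to the nearest DDX5 peak was 97.4 kb for strong and 132.1 kb for moderate sites. It was 109.2 kb at a pileup of 100 to under 120 and 83.5 kb at 200 or more, while the share within 10 kb covered 120 of 815 and 11 of 88 sites in the same classes.

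The closest pair, singled out after its values were seen, was on chromosome 1. The Fra-1 peak at 36839078 to 36839901 (pileup 147, 16.9-fold over input) ended 94 bp before a DDX5 peak at 36839995 to 36840279 (pileup 16, 3.599-fold). On chromosome 19 a Fra-1 peak at 48829171 to 48829610 with a pileup of 199 and 45.8-fold over input lay 177 bp from a DDX5 peak of 4.51-fold. Over the 59 pairs within 1 kb, the DDX5 peaks had a median pileup of 22 and a median fold of 3.85, close to those of DDX5 peaks that did overlap strong Fra-1 sites. The 3830 listed DDX5 peaks at like input levels had a median pileup of 22 too, so that depth is not particular to these pairs.

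Few strong sites without DDX5 had another of their kind close by, and most lay near some other Fra-1 peak. Another such site lay within 12500 bp of 262 (14.3%, 12.7% to 15.9%). For moderate sites, a set with many more members, the share with a site of their own set was 44.5%, and for strong sites with DDX5, a smaller set, it was 13.1% (10.6% to 15.9%). A strong site with DDX5 lay within 12500 bp of 114 strong sites without DDX5 (6.21%). Any other Fra-1 peak over input lay within 12500 bp of 71.6% of them, of 61.9% of moderate sites and of 79.2% of strong sites with DDX5. Within 1 kb the shares were 31.9%, 27.0% and 37.1% in the same order, and the median distances to the next Fra-1 peak 3.30, 5.78 and 2.15 kb, so strong sites without DDX5 stood between the other sets. Joined at gaps of at most 12500 bp, the 1836 sites formed 1698 groups, of which 1574 held 1 site, 112 held 2, 10 held 3 and 2 held 4.

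The group on chromosome 16 at 29276592 to 29283708 packed 4 sites into 7.12 kb, with pileups of 110 to 185 and 20.2-fold to 27.3-fold over input. The other group of 4 covered 15.7 kb on chromosome 8 at 32185583 to 32201288, with pileups of 102 to 144 and 9.67-fold to 16.6-fold. The tightest groups of 3 were on chromosome 1 at 78805159 to 78806622 (1.46 kb), chromosome 8 at 132826548 to 132828971 (2.42 kb, pileups of 100 to 199) and chromosome 10 at 26775121 to 26777719 (2.60 kb, pileups of 107 to 189 and 11.1-fold to 30.6-fold over input). No DDX5 peak over input lay inside any of these 5 stretches. In the group on chromosome 10 the IgG level was low, with a median of 4.04 fragments, and the sites were 19.1-fold to 28.0-fold over IgG.

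The sites were unevenly spread over the chromosomes, in step with the input level. Chromosomes 1, 8, 5, 3 and 10 held 236, 196, 184, 168 and 134 of them, together 918 (50%), against 34.2% of moderate sites. These 5 were picked because they held most of the strong sites, so that contrast follows in part from the choice. On chromosome 8, 25.8% (22.7% to 29.0%) of IgG-called peaks without DDX5 were strong, and on chromosome 20, 22.6% (18.2% to 27.4%) were. The lowest shares were 5.47% (3.82% to 7.56%) on chromosome 12, 6.85% on chromosome 11 and 6.99% on chromosome 4. The median input level at these peaks was 7.36 on chromosome 8 and 6.78 on chromosome 20, but 3.68 on chromosomes 12 and 11 and 3.87 on chromosome 4. Over the 23 chromosomes the share of strong sites and the median input level had a Spearman rho of 0.92. This is a description over chromosomes that share the same libraries, not a test.

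Sites taken by fold over input in place of pileup were spread differently. The 1836 peaks with the highest fold among the IgG-called peaks without DDX5, all of at least 16.6-fold, shared 1232 sites (67.1%) with those taken by pileup. They put 34.4% on the same 5 chromosomes, which were picked by the counts of the sites taken by pileup. Their share per chromosome had a rho of -0.51 with the input level. On chromosome 8 the share was 8.94%. The 604 sites that only the pileup selects had a median input level of 7.74 and a median pileup of 113, and the peaks that only the fold selects had medians of 3.29 and 85. The pileup is not divided by the input level, and the fold is. Copy number in BT549 was not tested.

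**Figure D5:**
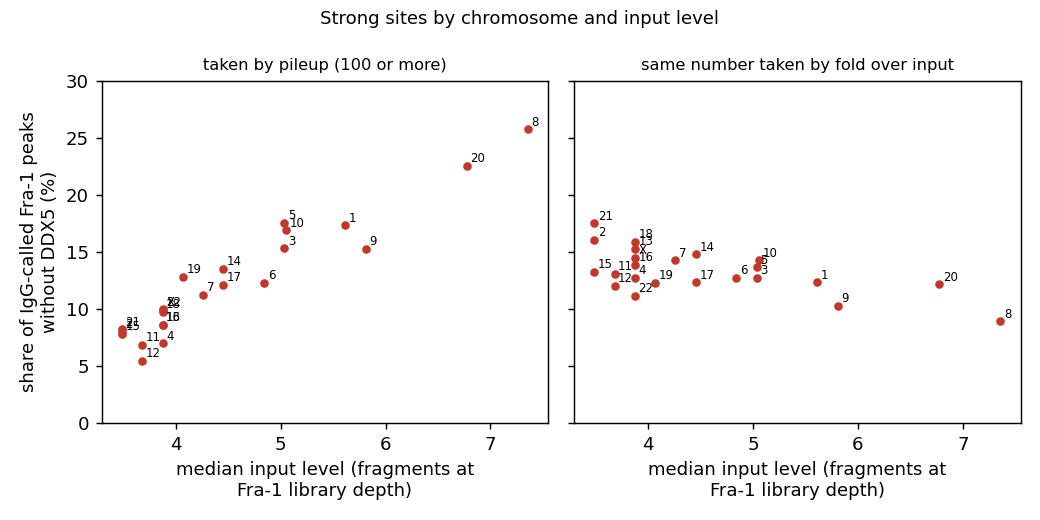
Share of IgG-called Fra-1 peaks without DDX5 (%) that are strong by pileup of 100 or more (left) or are among the same number of peaks with the highest fold over input (right), against the median input level of those peaks in fragments at the depth of the Fra-1 library; each point is 1 chromosome, labelled by its name. On the left the share climbs with the input level to 25.8% on chromosome 8, and on the right chromosome 8 is lowest at 8.94%.

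Within the 1836 sites, the pileup and the control levels were weakly related. Across sites of this 1 set of libraries, the pileup had a Spearman rho of 0.30 with the IgG level, 0.17 with the input level and 0.18 with the width. The fold over input and the fold over IgG had a rho of 0.34 with each other although they share the Fra-1 fragments. In the classes of pileup used above, from low to high, the median IgG level was 7, 8, 10 and 11 fragments, the median input level 5.61, 5.81, 6.002 and 7.11, and the median fold over IgG 11.8, 13.4, 14.1 and 15.9.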

How the data were processed

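The 4 deposited peak lists hold 1 antibody against 1 control each. The submitters' processing notes name CASAVA 1.8, Bowtie 0.12.9, HOMER and hg19, without roles; the peak caller is not given in the sources used here. Per the file headers, the deposited signal is a pileup in fragments at the summit and the fold enrichment a ratio. The authors' lists also hold −log10 values under header cells lost to spreadsheet errors. The first equals a Poisson upper tail of the pileup (median difference 6.22e-06 in the Fra-1 list over input), and the other was taken as −log10 q.

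The control level was computed as pileup plus 1, over fold, minus 1. It is censored at the floor the caller assumed. IgG levels were divided by 0.884 where set beside input levels, since the authors scaled Fra-1 to the IgG library. Where several IgG-called peaks overlapped a site, the one with the highest fold was used. Overlap means at least 1 bp. Read depths are unknown. Sites were named by rank of pileup, fold over IgG and input level, and by group size with ties taken by the shorter span. Other sites were chosen after their values were seen. The sites, classes and lists were chosen with earlier results of these data known. The overlap code was tested on simulated peaks. Software was Python 3.11.15 with scipy 1.17.1, pandas 2.3.3, matplotlib 3.10.9 and numpy 2.4.6. Planned counts of motifs, gene starts and gene lists at the sites were not run.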

Additional observations from a re-analysis of the deposited data

How the results depend on the processing

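No paired analysis was possible because each antibody and control has 1 library. Among 17 alternatives, 6 gave a value inside the reported value's 95% interval (for the number of sites, at most 1.5 times away). With a pileup of 80 or more there were 3094 sites and with 150 or more 413, against 1836. The share of strong IgG-called peaks without DDX5, 73.6%, became 78.9% at a pileup of 80 or more, 57.8% at 150 or more and 71.4% with no DDX5 peak within 1 kb. The median fold over IgG, 12.9, became 11.96 and 14.6 at pileups of 80 or more and 150 or more. The share of sites with another such site within 12500 bp, 14.3%, became 9.53% within 5 kb and 21.5% at a pileup of 80 or more. That with a DDX5 peak within 10 kb, 14.5%, became 9.75% within 5 kb. The share on the 5 chromosomes with most of the 1836 sites, 50%, became 34.4% when the same number of sites was taken by fold over input. That alternative was chosen after the data were seen. The 5 chromosomes were not picked anew for it, so the fall can follow in part from that choice. Thresholds and shorter distances change counts and shares of neighbours by construction, and for the other moves the cause was not tested. Alternatives for motifs and gene starts were not run. Depth limits single sites near the DDX5 threshold, and libraries without replicates limit all comparisons.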
